A study of Mus musculus with 8 samples.

Results

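A set of 10 genes of blood vessel endothelium, chosen by name, was followed in the esophagus of mice that overexpress IL-33: Sele, Selp, Icam1, Vcam1 and Ackr1, which act in the capture of leukocytes from blood, and Pecam1, Cdh5, Tek, Plvap and Angpt2, which mark endothelial cells or act on their junctions and growth state. All 10 were found among the 49315 gene identifiers of the deposited counts, and all 10 passed the filter on low counts. RNA was taken from the whole esophagus of 8 male mice aged 8 weeks, on the C57BL/6J strain. The EoE33 group held 4 transgenic mice that overexpress IL-33 in the esophagus, per the labels, and the wild type group held 4 littermates. Which promoter drives the transgene, and from how many founders, is not given in the sources used here. Whole esophagus holds epithelium, lamina propria, smooth and striated muscle and vessels, so every level is a share of all RNA of the organ. In such bulk samples fewer cells of a type and less RNA per cell cannot be told apart.

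Endothelial cells line vessels and, when activated by cytokines, display adhesion molecules on which leukocytes first roll and then stop. The selectins capture flowing cells, and the immunoglobulin superfamily members ICAM-1 and VCAM-1 hold them through leukocyte integrins. P-selectin, von Willebrand factor and angiopoietin-2 are kept in the same storage granules of endothelial cells. VE-cadherin and the receptor TIE2 keep junctions closed, and angiopoietin-2 can oppose the signal that angiopoietin-1 gives through TIE2. In eosinophilic esophagitis, eosinophils enter the esophagus from blood through such vessels.

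The promoters of the members that rose and that had a RefSeq entry are shown because an NF-kB element near the start is known for E-selectin and ICAM-1. RefSeq promoter windows on GRCm38.p6, from 250 bases before to 50 bases after the start site, were matched by symbol for 5 of the 10 members: Sele, Selp, Icam1, Ackr1 and Tek. Capitals mark the loose NF-kB pattern GGNNNTTCC on either strand, a pattern chosen after the stricter consensus had been found in none of the 5 windows. The windows are chr1:164047984-164048283 for Sele, chr1:164115014-164115313 for Selp and chr9:21015690-21015989 for Icam1, all on the plus strand.
Sele: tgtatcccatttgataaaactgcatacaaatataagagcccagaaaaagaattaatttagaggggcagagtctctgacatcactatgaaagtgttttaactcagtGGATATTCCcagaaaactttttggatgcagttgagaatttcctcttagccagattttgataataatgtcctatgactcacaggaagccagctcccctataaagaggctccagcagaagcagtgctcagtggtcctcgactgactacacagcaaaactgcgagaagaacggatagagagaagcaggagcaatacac
Selp: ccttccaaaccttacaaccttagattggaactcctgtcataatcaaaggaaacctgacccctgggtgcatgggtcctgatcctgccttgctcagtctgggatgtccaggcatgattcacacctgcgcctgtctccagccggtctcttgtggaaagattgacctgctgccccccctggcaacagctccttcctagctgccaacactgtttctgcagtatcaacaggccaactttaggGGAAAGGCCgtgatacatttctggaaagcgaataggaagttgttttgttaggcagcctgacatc
Icam1: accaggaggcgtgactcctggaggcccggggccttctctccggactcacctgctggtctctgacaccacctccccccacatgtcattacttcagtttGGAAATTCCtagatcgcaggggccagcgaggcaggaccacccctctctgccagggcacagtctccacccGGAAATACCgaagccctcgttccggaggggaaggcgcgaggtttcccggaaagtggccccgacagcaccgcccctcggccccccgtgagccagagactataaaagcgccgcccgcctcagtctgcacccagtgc
The Sele match began 145 bases before the start, the Selp match 14 bases before it, and the Icam1 matches 153 and 84 bases before it. The loose pattern was also found in the Ackr1 window and not in the Tek window. It occurs in 18.5% of 32851 promoter windows of that length, and the NF-kB consensus in 4.51%. The AP-1 pattern TGANTCA was found once each in the Sele and Selp windows, and it occurs in 7.81% of all windows. The STAT6 pattern, TTC and GAA with 4 bases between them, present in 6.95% of all windows, was found in none of the 5. The ETS pattern AGGAAG, present in 35.4% of all windows, was found in the Sele, Selp and Ackr1 windows. Both strands were searched, and in the Ackr1 window a match of the loose pattern overlaps an ETS match.

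Libraries held from 17.73 to 24.07 times 1e6 counts. Il33 lay between 99.8 and 165.1 CPM, counts per 1e6 counts scaled by TMM factors, in wild type and between 354.7 and 393.4 CPM in EoE33, in the direction of the labels. Wild type replicate 3 held airway transcripts, with Scgb1a1 at 350.6 CPM, and wild type replicate 1 held liver transcripts, with Alb at 91.3 CPM. The other wild type libraries held less, with Scgb1a1 between 5.44 and 5.90 CPM and Alb between 3.21 and 6.90 CPM. These too lay above every EoE33 library, at most 1.05 CPM for Scgb1a1 and 2.55 CPM for Alb. Across all genes 63.4% passed the test (edgeR quasi-likelihood test, Benjamini-Hochberg adjusted p under 0.05), so a single call is common in this comparison. The question for these 10 genes is in which direction and how far each moved. Of the 10 members 5 were higher in EoE33, where 31.3% of the 16760 genes tested were higher, and 2 were lower, where 32.1% were. The other 3 did not pass. For the same 5 and the same 2 genes the ranges of the groups were separate. Over all genes such separation was found upward in 29.6% and downward in 29.9%. The results below are therefore those of each gene, and nothing particular to the set is read from these counts.

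The endothelial selectins and Icam1 rose. Sele (ENSMUSG00000026582), which encodes E-selectin, a rolling receptor that endothelium makes when cytokines activate it, lies on chromosome 1 from 164048234 to 164057677 (GRCm38, plus strand). Its level was 0.297, 0.395, 0.127 and 0.428 CPM in wild type replicates 1 to 4 and 6.16, 1.93, 9.62 and 4.14 CPM in EoE33 replicates 1 to 4. Wild type was near the detection limit, with 29 counts over 4 libraries against 468 in EoE33, and the lowest EoE33 library stood above the highest wild type library. The fold was 17.4 (4.12 ± 0.55 SE as a log2 fold change, adjusted p = 0.000211 by edgeR). Spread within EoE33 was wide, at 5.46 ± 3.27 CPM (SD, n = 4).

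Selp (ENSMUSG00000026580), the neighbouring gene on chromosome 1 from 164115264 to 164150026, encodes P-selectin, which endothelial cells and platelets store in granules. Its level was 3.06, 2.81, 6.31 and 7.24 CPM in the wild type mice and 22.2, 17.7, 33.3 and 19.1 CPM in the EoE33 mice, in replicate order. The lowest EoE33 value exceeded the highest wild type value, and replicate 3 was the highest EoE33 library for both selectins. The fold was 4.75 (2.25 ± 0.35 SE as a log2 fold change, adjusted p = 0.000622 by edgeR). Icam1 (ENSMUSG00000037405), on chromosome 9 from 21015985 to 21028817, encodes ICAM-1, the ligand of the leukocyte integrins LFA-1 and Mac-1. It is also made by epithelial cells and leukocytes. Its level was 16.5, 17.8, 20.9 and 18.6 CPM in the wild type mice and 55.7, 76.2, 74.7 and 67.1 CPM in the EoE33 mice. The groups stood well apart with little spread inside either, and the fold was 3.71 (1.89 ± 0.12 SE as a log2 fold change, adjusted p = 2.01e-06 by edgeR). Unnamed gene models on the opposite strand share exons with Selp and Icam1, but held 31, 27 and 64 counts over all 8 libraries.

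Vcam1 and Ackr1 did not pass. Vcam1 (ENSMUSG00000027962; chromosome 3, 116109949 to 116129688, minus strand) encodes VCAM-1, the ligand of the integrin VLA-4 that eosinophils and lymphocytes carry. Its level was 11.1, 9.58, 11.2 and 16.0 CPM in the wild type mice and 13.4, 18.3, 14.5 and 14.4 CPM in the EoE33 mice. Wild type replicate 4 reached into the EoE33 range, and without it the log2 fold change was 0.51 and passed (adjusted p = 0.00922 by edgeR). With all libraries it was 0.34, and its 95% limits were −0.04 and 0.72 (adjusted p = 0.103 by edgeR). Ackr1 (ENSMUSG00000037872; chromosome 1, 173331886 to 173333750, minus strand) encodes an atypical receptor that binds many chemokines without G protein signalling and marks venules. Its level was 3.35, 2.59, 4.02 and 3.34 CPM in the wild type mice and 2.77, 3.51, 4.62 and 3.85 CPM in the EoE33 mice. The groups overlapped throughout, and the estimate of 0.15 on the log2 scale had 95% limits of −0.31 and 0.60 (adjusted p = 0.538 by edgeR). A change of the size of Icam1 lies outside both intervals. Ackr1 shares exonic sequence with Cadm3 on the same strand, an adhesion gene of nerve cells that fell from 24.3 ± 4.54 to 8.24 ± 2.32 CPM (SD, n = 4 each), and reads in the shared part cannot be assigned from these counts.

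**Figure D1:**
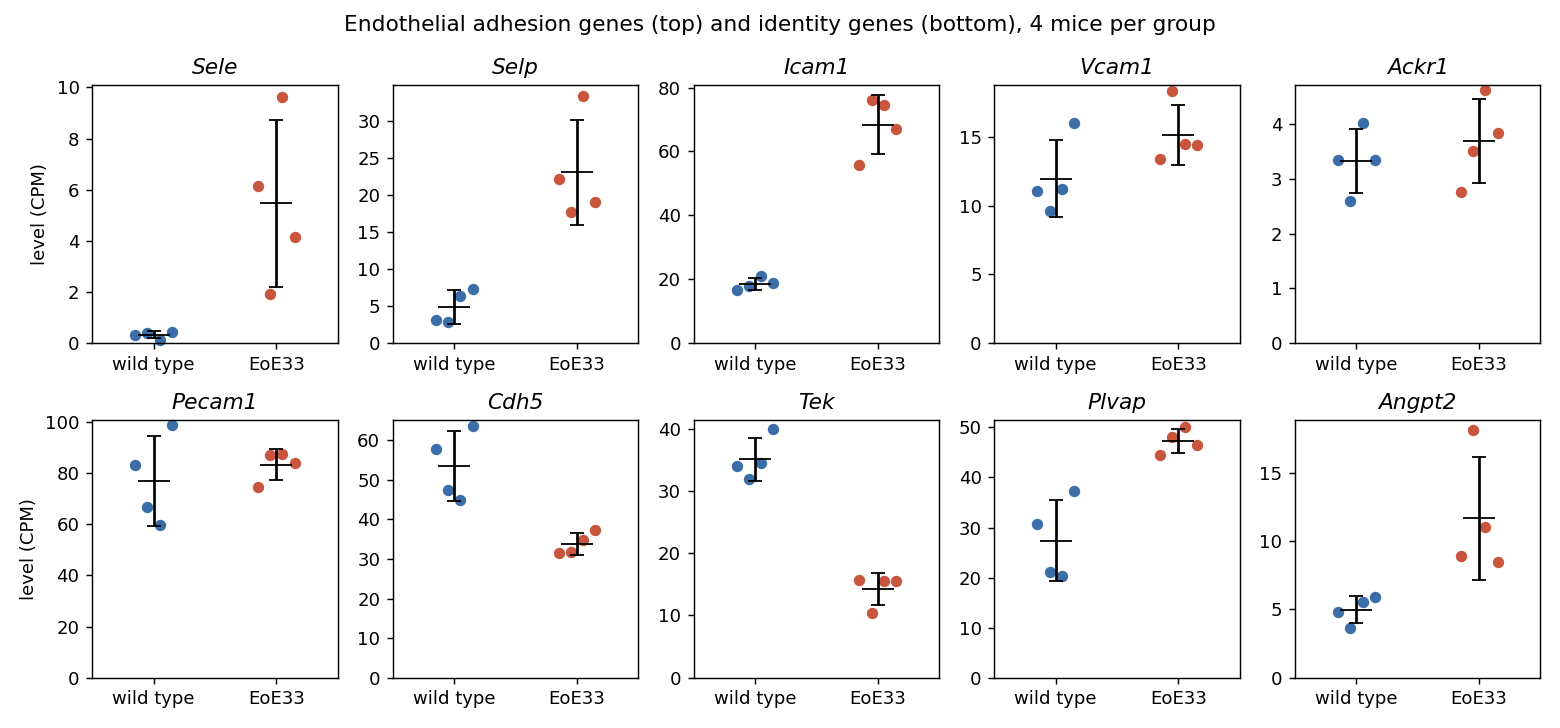
Level of each gene in CPM (counts per 1e6 counts, TMM-scaled) in wild type and EoE33 mice, 1 point per mouse, with mean and SD as black bars and an axis of its own from 0 in each panel. Sele, Selp, Icam1, Plvap and Angpt2 lie higher and Cdh5 and Tek lower in every EoE33 mouse, while Vcam1, Ackr1 and Pecam1 overlap.

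The identity genes moved in different directions. Pecam1 (ENSMUSG00000020717; chromosome 11, 106654217 to 106750628, minus strand) encodes PECAM-1, or CD31, a junction protein of all endothelium that platelets and many leukocytes also carry. It was at 83.1, 66.8, 59.7 and 99.0 CPM in the wild type mice and 74.6, 87.3, 87.6 and 84.0 CPM in the EoE33 mice. The EoE33 libraries lay inside the wild type range, and the estimate of 0.11 on the log2 scale had 95% limits of −0.22 and 0.45 (adjusted p = 0.528 by edgeR). Cdh5 (ENSMUSG00000031871; chromosome 8, 104101625 to 104144511, plus strand) encodes VE-cadherin, the adherens junction cadherin of endothelium. It was at 57.9, 47.5, 45.0 and 63.6 CPM in the wild type mice and 31.6, 31.7, 34.7 and 37.4 CPM in the EoE33 mice. Every EoE33 library lay under every wild type library, and Cdh5 was 1.58-fold lower (−0.66 ± 0.12 SE as a log2 fold change, adjusted p = 0.000988 by edgeR).

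Tek (ENSMUSG00000006386; chromosome 4, 94739289 to 94874976, plus strand) encodes TIE2, the receptor of the angiopoietins. It was at 34.0, 32.0, 34.5 and 40.0 CPM in the wild type mice and 15.8, 10.4, 15.5 and 15.5 CPM in the EoE33 mice. The groups stood apart, EoE33 replicate 2 was the lowest library, and Tek was 2.45-fold lower (−1.29 ± 0.14 SE as a log2 fold change, adjusted p = 4.23e-05 by edgeR). Plvap (ENSMUSG00000034845; chromosome 8, 71497765 to 71511752, minus strand) encodes the protein that forms the diaphragms of fenestrae and caveolae. It was at 30.6, 21.1, 20.4 and 37.2 CPM in the wild type mice and 44.5, 48.1, 50.01 and 46.5 CPM in the EoE33 mice. Plvap rose 1.73-fold (0.79 ± 0.18 SE as a log2 fold change, adjusted p = 0.00503 by edgeR), and the EoE33 libraries were closer together than the wild type libraries.

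Angpt2 (ENSMUSG00000031465; chromosome 8, 18690263 to 18741562, minus strand) encodes angiopoietin-2. It was at 4.795, 3.65, 5.54 and 5.91 CPM in the wild type mice and 8.93, 18.1, 11 and 8.49 CPM in the EoE33 mice. EoE33 replicate 2, the library with the least Tek, held the most Angpt2, and no EoE33 library reached down to wild type. The fold was 2.33 (1.22 ± 0.26 SE as a log2 fold change, adjusted p = 0.00305 by edgeR), or 0.93 on the log2 scale in the lowest of the fits without 1 library. Plvap and Angpt2 share their span with genes of the opposite strand, Gtpbp3 and Mcph1, without exon overlap.

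Divided by exon length, levels can be compared between genes only roughly, as CPM per kilobase of merged exons. Merged exons exceed the longest transcript for Vcam1 (8870 against 4088 bases), Pecam1 (6228 against 3441) and Icam1 (4360 against 2535), among others. For Plvap (1987 bases) and Sele (2912 bases) both lengths are the same. The order below holds for merged exons and differs with the longest transcript. In wild type the highest were Plvap at 13.8 ± 4.07, Cdh5 at 12.7 ± 2.08 and Pecam1 at 12.4 ± 2.82 CPM per kilobase (SD, n = 4 each), whose libraries overlapped. Tek followed at 7.45 ± 0.729, Icam1 at 4.23 ± 0.428 and Ackr1 at 2.37 ± 0.415, each apart from its neighbours. Angpt2 at 1.35 ± 0.271, Vcam1 at 1.35 ± 0.314 and Selp at 1.10 ± 0.510 overlapped, and Sele was the lowest at 0.107 ± 0.0465 CPM per kilobase. In EoE33 Plvap stood first at 23.8 ± 1.18 CPM per kilobase, apart from Icam1 at 15.7 ± 2.15, which had moved from the fifth place to the second and overlapped Pecam1 at 13.4 ± 0.972. Cdh5 at 8.05 ± 0.664 came next and overlapped Selp at 5.22 ± 1.61. From Selp down to Vcam1, the last at 1.71 ± 0.245, every gene overlapped its neighbour, and Tek had moved from the fourth place to the seventh.

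Other pan-endothelial genes moved as well. Of 25 such genes, all tested, 15 fell, 2 rose and 8 did not pass, with a median log2 fold change of −0.37, against −0.01 over all 16760 genes. Their summed level lay between 593.9 and 803.9 CPM in wild type mice, against 502.5 to 577.3 CPM in EoE33 mice. The largest part of this sum in wild type was Cd34, at 167.4 ± 15.1 CPM, against 83.35 ± 9.82 CPM in EoE33 (SD, n = 4 each). Without Cd34 the sums of the groups overlap. Cd34 is not particular to endothelium, and the fibroblast genes below fell too, with a median log2 fold change of −0.82. Which cells the fall of Cd34 came from was not tested. The progenitor and capillary marker Cd34 fell by 1.01, the VEGF receptor Flt1 by 0.60 and Ptprb, the phosphatase that acts on TIE2, by 0.63 on the log2 scale. Those that rose were Vwf, which encodes von Willebrand factor, with a log2 fold change of 0.77, and Ecscr, an endothelial surface protein gene, with 1.95. The count of falls moved with single libraries and with the scale: it was 8 once wild type replicate 4 was left out, 9 once EoE33 replicate 1 was, and 4 when the scale was the list itself.

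Members were therefore also fitted with the mean level of these 25 genes in each library as part of the scaling, which moved the median log2 fold change of all genes from −0.01 to 0.22. The log2 fold change of Sele was then 4.37, of Selp 2.5, of Icam1 2.11, of Plvap 1.07 and of Angpt2 1.47, and all 5 passed (edgeR adjusted p from 1.05e-08 to 0.000197). Cdh5 and Tek stayed lower than the reference genes, with log2 fold changes of −0.41 (adjusted p = 0.0161 by edgeR) and −1.05 (adjusted p = 1.94e-05 by edgeR). Vcam1 and Pecam1 now passed, with 0.60 (adjusted p = 0.0041 by edgeR) and 0.38 (adjusted p = 0.0302 by edgeR). Ackr1, at 0.37, did not (95% interval −0.13 to 0.87, adjusted p = 0.193 by edgeR). Under this scaling 35.5% of all genes were higher and 19.1% lower.

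**Figure D2:**
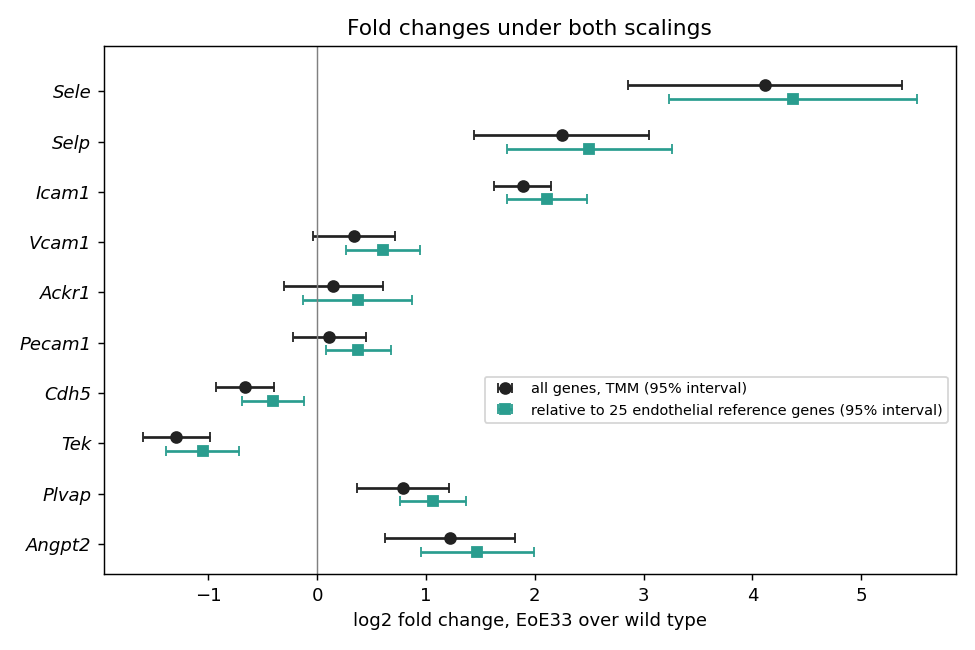
Log2 fold change of each gene, EoE33 over wild type, with all genes as the scale (black circles) and relative to 25 other endothelial genes (green squares), with 95% intervals from edgeR. The direction of each gene is the same on both scales, and Vcam1 and Pecam1 clear 0 on the second alone.

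Ratios of genes within a library do not depend on scaling, and 3 were examined as log2 count ratios in an exact permutation test, two-sided. They can still move with the mix of cells in the organ, whose part was not tested. Counts in these ratios were not divided by exon length. Angpt1, the agonist of TIE2, fell by 1.13 on the log2 scale (adjusted p = 0.000441 by edgeR). There were 0.537, 0.468, 0.814 and 0.694 Angpt2 counts per Angpt1 count in wild type and 2.01, 6.98, 2.89 and 2.23 in EoE33. Angpt1 counts were thus the larger in every wild type library and Angpt2 counts in every EoE33 library, a 5.02-fold difference. Icam2, the constitutive ICAM of endothelium, did not pass, at −0.26 on that scale (adjusted p = 0.442 by edgeR). There were between 3.02 and 5.44 Icam1 counts per Icam2 count in wild type and between 14.5 and 19.6 in EoE33. For Plvap against Cldn5, a tight junction gene of endothelium, the ratio lay between 2.40 and 2.59 in wild type and between 4.08 and 4.92 in EoE33. The wild type libraries lay close together in this ratio, while Plvap itself lay between 20.4 and 37.2 CPM in them. For each of the 3 ratios the exact p was 0.0286, and 0.0286 after adjustment over the 3, the smallest that 70 orderings can give. The pairs were formed with values of these data known, and Angpt2, Icam1 and Plvap each separated the groups already. These p-values are therefore no support beyond the single genes, and the ratios are given for their size.

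**Figure D3:**
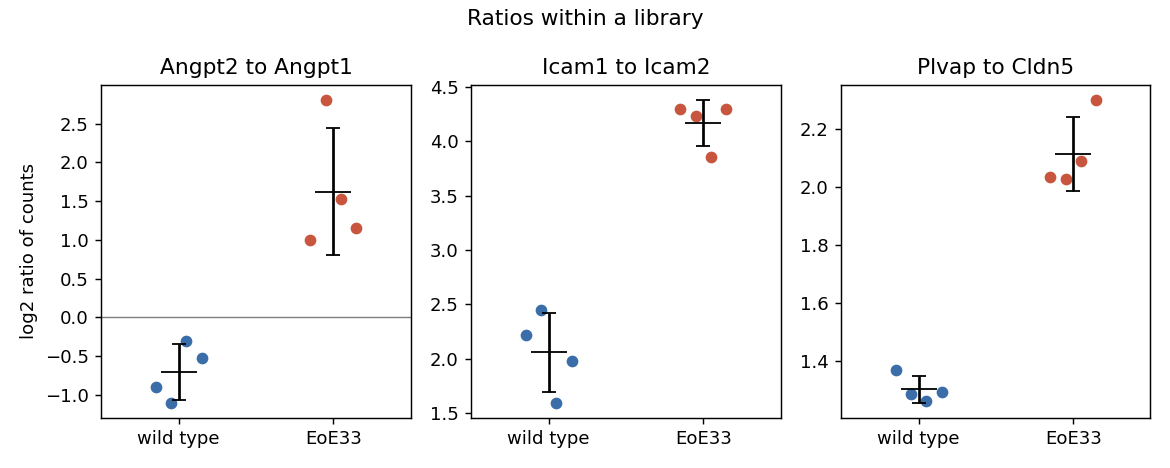
Log2 ratio of counts within each library for Angpt2 over Angpt1, Icam1 over Icam2 and Plvap over Cldn5, 1 point per mouse, with mean and SD as black bars and axes that do not start at 0. The groups do not overlap in any of the 3 panels, and the sign of the first ratio differs between groups.

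Markers of vessel types were split, with median log2 fold changes of 0.77 for venule, −0.42 for artery, −0.61 for capillary and 0.12 for lymphatic genes. Of 7 tested venule genes 3 rose, which were Ephb4, Vwf and the interleukin-1 receptor gene Il1r1, with log2 fold changes of 0.83, 0.77 and 1.52. Nr2f2 and Aplnr fell, with log2 fold changes of −0.75 and −0.70. Lrg1, at 0.82, and Emcn, at −0.16, did not pass. The venule sum lay between 153.4 and 222.6 CPM in wild type mice, against 250.1 to 320.3 CPM in EoE33 mice. This separation rests on Il1r1, which is also counted in the NF-kB list below. Its mean level was 26.1 CPM among wild type mice and 75.0 CPM among EoE33 mice. With Il1r1 left out, the venule sums overlap. Of 10 artery genes 5 fell, among them Sox17 and Hey1, and Efnb2 rose, and the falls were 3 without wild type replicate 1 or 4 or EoE33 replicate 1 or 3. The rises were 2 without wild type replicate 4 or EoE33 replicate 4, and 2 relative to the 25 endothelial genes. The artery sums overlapped, from 192.7 to 264.4 CPM and from 181.3 to 214.6 CPM. Of 7 capillary genes 4 fell, with Rgcc the farthest at −2.61 and the fatty acid receptor gene Cd36 at −1.71, but 2 fell without wild type replicate 4. Car4, a carbonic anhydrase gene, rose with a log2 fold change of 2.26, and Esm1, a gene of growing endothelial tips, with 0.83. The count of rises was 1 without EoE33 replicate 1 or wild type replicate 2 or 3. The capillary sum, led by Cd36, lay between 219.1 and 421.6 CPM in wild type mice, against 99.8 to 145.2 CPM in EoE33 mice. Of 6 lymphatic genes Pdpn and Mmrn1 rose and Lyve1 fell, and the rises were 1 without wild type replicate 1 or 4 or EoE33 replicate 2 or 3. Flt4, Prox1 and Reln did not pass, and the sums overlapped, from 157.9 to 197.2 CPM and from 172.7 to 228.5 CPM. Relative to the 25 endothelial genes the falls were 1 in the venule list, 0 in the artery list, 2 in the capillary list and 0 in the lymphatic list. Pdpn, Cd36 and Efnb2, among other genes of these lists, are also known in cells other than endothelium. The medians are therefore not readings of vessel types alone.

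Other adhesion and junction genes of the vessel wall were split. Of 13 tested, 4 rose and 7 fell, with a median log2 fold change of −0.37. F11r, Nectin2, Alcam and Cd47 rose, with log2 fold changes of 1.59, 1.47, 1.04 and 0.64, and all are also made by epithelium. Among those that fell were the junction gene Jam3, at −1.53, and Cd34, a selectin ligand in lymph node vessels, at −1.01. Madcam1 and Glycam1, ligands for lymphocyte homing, had too few counts to test, with means of 0.34 and 0.40 CPM in EoE33.

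Most leukocyte partners of these molecules rose. Of 13 tested counter-receptor genes 9 rose, 1 fell and 3 did not pass, with a median log2 fold change of 1.38. Over all genes 31.3% rose, and general leukocyte genes rose in 7 of 8, with a median of 1.54. Nothing particular to the adhesion partners is therefore read from this count. The genes named next are the known partners of the members and were picked with their values in view. Selplg, which encodes the main P-selectin ligand, stood at 10.3 ± 3.40 CPM in wild type and rose to 30.8 ± 5.21 CPM (SD over 4 mice, 1.59 on the log2 scale, adjusted p = 0.000394 by edgeR). Itgal, the LFA-1 chain that binds ICAM-1, had a log2 fold change of 1.89, and Itgam, the Mac-1 chain, 1.10. Itgb2, the chain that LFA-1 and Mac-1 share, overlapped between groups and did not pass, at 0.79 (adjusted p = 0.0588 by edgeR). Itga4, the chain of VLA-4 that binds VCAM-1, did not pass, at 0.48 on the log2 scale (adjusted p = 0.0766 by edgeR). Itgb1, the other chain of VLA-4, did not pass either, at 0.17 (adjusted p = 0.348 by edgeR). The smallest p belonged to Cd44, an E-selectin ligand that keratinocytes also make, which rose by 1.38 on the log2 scale, and Podxl2 fell by 1.69. Of 10 tested enzymes that build selectin ligands 7 rose and 2 fell, with a median of 1.20. St3gal4 and B3gnt3 moved farthest, from 10.8 ± 1.91 to 254.3 ± 50.2 CPM and from 5.03 ± 0.87 to 107.9 ± 25.6 CPM (SD, n = 4 each), and both also act in epithelial glycans.

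NF-kB genes, of the pathway through which tumour necrosis factor and interleukin-1 induce the selectins and Icam1 in endothelium, rose in 19 of 20 tested genes, with a median log2 fold change of 1.19. Tnfaip3 and Nfkbiz, feedback regulators, rose by 3.42 and 1.84 on the log2 scale, and the subunit genes Nfkb1 and Rel by 1.87 and 1.33. Bulk libraries do not place these rises in endothelium. Beside Angpt2, which rose, and Tek, which fell, 15 other genes of the angiopoietin, TIE and VEGF systems were tested. Of these 9 fell and 6 did not pass, with a median of −0.47. Vegfd, Vegfb and Angpt1 fell by 0.96, 0.80 and 1.13 on the log2 scale, and Flt1 by 0.60. Relative to the 25 endothelial genes 5 of the 15 were lower and 1 was higher, and with all genes as the scale 1 was higher without wild type replicate 4 or EoE33 replicate 2.

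**Figure D4:**
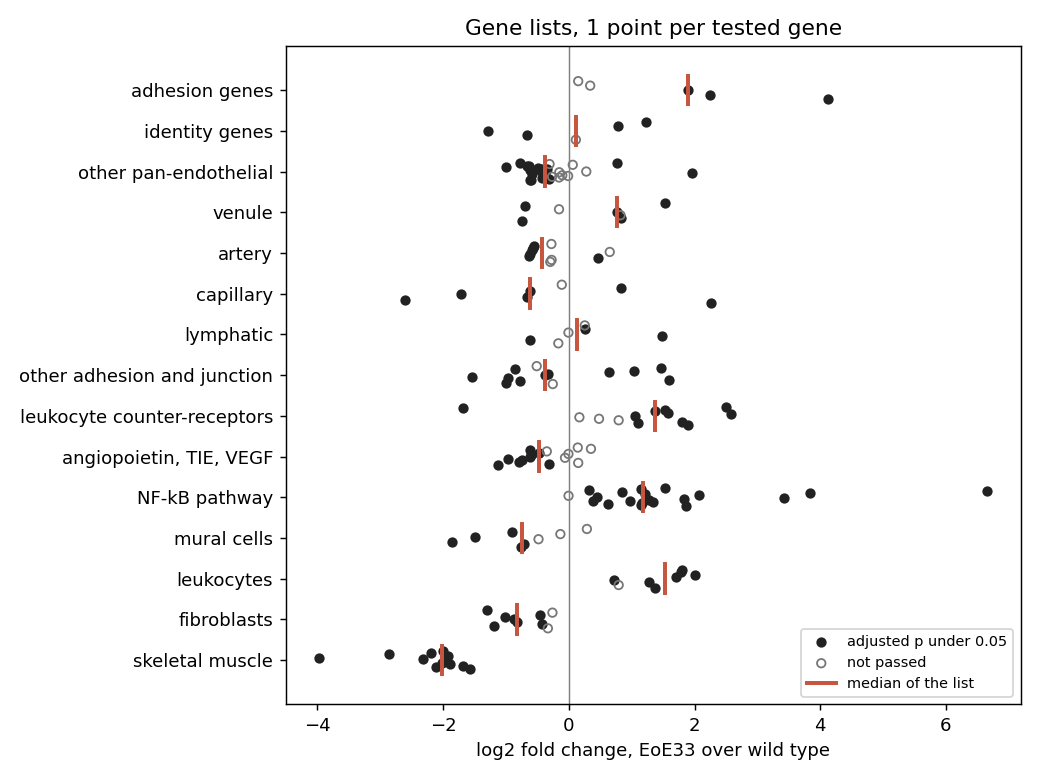
Log2 fold change, EoE33 over wild type, of each tested gene in 15 lists, with filled points for edgeR adjusted p under 0.05, open points for the rest and a red bar at each list's median. The adhesion genes lie wholly above 0, with Vcam1 and Ackr1 not passed. The NF-kB list lies almost wholly above 0 and skeletal muscle wholly below 0, while the other endothelial lists lie on both sides.

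Other cells of the organ moved with genotype, and their part in the results was not tested. Skeletal muscle genes fell in 12 of 12 genes, from between 42600 and 47150 CPM summed in wild type to between 10880 and 14610 CPM in EoE33. Mural cell genes fell in 5 of 8 genes and rose in none, or in 1 without EoE33 replicate 3, with Rgs5 at 188.3 ± 20.4 and 114.9 ± 13.5 CPM (SD, n = 4 each), and their sum lay between 581.5 and 686.7 CPM in wild type mice, against 410.6 to 505.2 CPM in EoE33 mice. Fibroblast genes fell in 7 of 9, with sums between 4073 and 4961 CPM in wild type mice, against 2146 to 3148 CPM in EoE33 mice. Keratinocyte genes rose in 7 of 10 and fell in 3, and their sum, led by Krt4 and Krt13, lay between 54980 and 95610 CPM in wild type mice, against 37020 to 55420 CPM in EoE33 mice. Leukocyte genes rose in 7 of 8, with sums between 110.7 and 229.8 CPM in wild type mice, against 375.8 to 506.7 CPM in EoE33 mice, and macrophage genes in 9 of 10, with sums between 310.0 and 487.5 CPM and between 590.4 and 774.2 CPM. Pecam1, Icam1, Vcam1 and Selp can be made by leukocytes, epithelium, macrophages or platelets.

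Platelet genes, which bear on Selp, were split. Of 5 tested, Ppbp, a neutrophil-attracting chemokine gene, was at 8.13 ± 4.95 CPM in wild type and rose to 1234 ± 433 CPM (SD over 4 mice) and Itga2b, which encodes a platelet integrin chain, rose by 0.64 on the log2 scale. The platelet receptor genes Gp1ba and Gp1bb fell, by 1.40 and 1.84, and Pf4 did not pass, at −0.71 (adjusted p = 0.0529 by edgeR). With Ppbp the summed level lay between 35.3 and 66.6 CPM in wild type mice, against 751.8 to 1800 CPM in EoE33 mice. The red blood cell genes, a measure of blood in the tissue, passed in 0 of 5 tested genes by edgeR, with 0 at an unadjusted p under 0.05 and 0 by DESeq2 and by limma-voom. The count was 1 without EoE33 replicate 2 and 1 with no filter on low counts, each time higher in EoE33. Their sum lay between 91.4 and 406.0 CPM in wild type mice, against 105.2 to 649.3 CPM in EoE33 mice. In both groups replicate 2 held the least of this sum and the least Selp. The airway and liver lists had 2 tested genes each, all lower by edgeR and none by DESeq2 or limma-voom. They summed to at most 3.41 and 4.10 CPM in EoE33, against 1076 and 151.1 CPM in wild type replicates 3 and 1, the libraries with the most. Without those 2 libraries the 10 members gave the same 5 higher and 2 lower.

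By pattern over the 8 libraries, measured as the root mean square difference of log2(CPM + 0.1) centred on each gene's mean, the protein-coding gene nearest to Plvap was Vwf, at 0.13. In wild type Vwf stood at 50.9 ± 13.0 CPM, and EoE33 mice had 86.9 ± 8.08 CPM (SD over 4 mice). The nearest gene to Pecam1 was Igfbp7, a gene strongly made by vessels, at 0.06. Nearest to Angpt2 were Sgms2 at 0.12 and Thbs1 at 0.14, both with a wide spread in EoE33. The gene nearest to Icam1 was Tagln2 at 0.06, to Tek Dnm1 at 0.06, to Cdh5 Rrm2b at 0.06, to Vcam1 Lbp at 0.08 and to Ackr1 Tymp at 0.11. Sele and Selp had no close neighbour, with Ctsg at 0.48 and Zc3h12d at 0.20. Sele had only 3 to 10 counts in each wild type library, so its distance to any gene also holds counting noise.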

How the data were processed

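PolyA-selected RNA of whole esophagus was read from both ends on the HiSeq platform, per the labels' protocols. The authors deposited raw counts per gene for 8 libraries. The submitters' processing notes name Trimmomatic 0.36, STAR 2.5.2b, featureCounts, Subread 1.5.2 and the build GRCm38, and no roles. The annotation release and the treatment of strand and multi-mapping reads: not given in the sources used here. Without strand, a gene and its antisense partner cannot be told apart. Columns were assigned to samples by the spreadsheet letter in each sample's description, and groups taken from titles. Nothing says whether mice were processed in batches.

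GENCODE M21 (GRCm38) named 49056 of 49315 identifiers and gave coordinates and merged exon lengths. Of the 150-base windows of each member's longest transcript, 0% occurred in transcripts of another gene. Genes were filtered with filterByExpr, which left 16760, scaled by TMM, and fitted in R 4.3.3 by the quasi-likelihood method of edgeR 4.0.16 (robust = TRUE), with adjusted p under 0.05 over all genes tested. Standard errors derive from the F statistic. Depth was 17.73 to 24.07 in units of 1e6 counts per library. No libraries agreed within sampling noise, with chi-square per degree of freedom of at least 10.4 within groups. Tested on simulated data over these 16760 genes, with 50 genes changed at each size, edgeR found 34% of the 1.5-fold, 88% of the 2-fold, 94% of the 4-fold and 98% of the 0.25-fold changes, and 10 of its 167 calls were false. All other genes were left unchanged there, while 63.4% passed in the real data, and no changed gene was as low in wild type as Sele. These rates check the fit and do not give the rates of the real comparison.

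The members and the 20 other gene lists were chosen with earlier results of these data known. Genes named beside the members were up to 4 of smallest p in each list and the 2 of nearest pattern to each member. Others were named to account for a small count, to form a ratio or as partners of a member, after their values were seen. The alternatives tried were upper-quartile scaling, library size only, DESeq2 size factors, scaling to 25 endothelial genes, DESeq2 1.42.0, limma-voom (limma 3.58.1), robust = FALSE, other filters, the replicate block, a stricter threshold and leaving out libraries. Ratios used a prior of 0.5 counts.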

Additional observations from a re-analysis of the deposited data

Results flagged for a closer look

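The Tek level of EoE33 replicate 2, 10.4 CPM, lay far below the other EoE33 libraries, which stood between 15.5 and 15.8 CPM. The log2 ratio of Icam1 to Icam2 in EoE33 replicate 3, 3.86, lay far below the other EoE33 libraries, which stood between 4.23 and 4.29. Both stand out by Dixon's test at the 95% level, among 26 groups of 4 libraries looked at, and chance gives about 1 in 20 such groups.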

How the results depend on the processing

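The 10 members gave 5 higher and 2 lower under DESeq2 size factors, upper-quartile factors, library size only, the DESeq2 test, limma-voom, robust = FALSE, both other filters, the threshold of 0.01 and without both wild type libraries with the most transcripts of other tissue. Leaving out 1 library gave 5 to 6 higher and 2 lower, and over all genes 4825 to 5160 higher and 4880 to 5333 lower. Relative to the endothelial reference genes 7 members were higher, and 3200 of all genes were lower in place of 5383, as the median of all genes moved from −0.01 to 0.22. Of 200 refitted member fold changes 0 reversed and 3 newly passed, Vcam1 under 2 settings and Pecam1 under 1. Of 800 list counts 69 moved by over 1.5 times.

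With the replicate number as a block 5 members were higher and 2 lower, with 4936 and 5120 of all genes, and the log2 ratio differences were 2.33, 2.11 and 0.81 for Angpt2 to Angpt1, Icam1 to Icam2 and Plvap to Cldn5, each with an exact p of 0.125, the smallest that 4 pairs allow. The red blood cell list had 3 higher in place of 0 under the block, and the artery list 3 lower in place of 5. Same-numbered libraries deviated together with correlations of 0.10, −0.12, 0.06 and −0.14, and 1 of 8 libraries correlated best with its own number, so the numbers were not taken as pairs. Without both wild type libraries with the most transcripts of other tissue the differences were 2.43, 1.96 and 0.82, each with an exact p of 0.0667, the smallest that 2 against 4 allow. Without 1 library they ranged from 1.93 to 2.53, from 1.95 to 2.24 and from 0.75 to 0.84. Sele had 29 counts in wild type, so its fold is the least precise.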
